A study of Mus musculus with 9 samples.

Results

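LAMP2A overexpression was compared with a vector control in D3 cells, an established line of mouse embryonic stem (ES) cells. The control group, VT, carried the empty pCDH vector stably, and the LAMP2A group overexpressed LAMP2A. Neither group received any agent, and both were kept feeder-free on dishes with 0.1% gelatin, in 15% fetal bovine serum and 1000 U/mL of leukemia inhibitory factor (LIF). Each group had 3 libraries, so the comparison used 6 of the 9 libraries in the series. The remaining 3 came from LAMP2A cells that received DM-αKG (4 mM for 72 h). They entered the choice of genes tested, the scaling and the estimate of the spread between libraries. A few of their levels are given near the end. All genes that passed an expression filter were included, 14513 of the 24421 in the count table. Whether the LAMP2A cells were 1 clone or a pool, which species the introduced LAMP2A came from, and how long the cells had carried it are points not given in the sources used here. No label states that replicates were separate cultures, so a p-value here measures the spread among these libraries alone, and that spread may be technical.

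LAMP2A is one splice variant of LAMP2, a protein of the lysosomal membrane. In chaperone-mediated autophagy, the cytosolic chaperone HSC70 binds proteins that carry a targeting motif and brings them to LAMP2A, which assembles into the complex through which they enter the lysosome. ES cells kept in serum and LIF hold a network of pluripotency factors around OCT4, SOX2 and NANOG, and they silence most genes of later lineages. When they leave that state they spread, build actin bundles and a basement membrane, and open developmental genes such as the Hox clusters and some imprinted genes.

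Lamp2 itself (chromosome X, 38401357–38456454 of the mouse build mm10, which is GRCm38) was at 57.5, 56.9 and 60.03 CPM in the VT libraries and 407, 403 and 403 CPM in the LAMP2A libraries. The groups did not overlap, and every LAMP2A library matched its label. The rise was 6.95-fold (log2 fold change 2.80, SE 0.0325; adjusted p = 2.2e-38 in edgeR's quasi-likelihood test). Counts per gene do not tell the splice forms apart, nor the introduced copy from the cell's own gene. CPM are read counts scaled to a common library size with TMM factors, and means below are over the 3 libraries of a group.

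The libraries held 24420412 to 32809875 counts, of which the top 10 genes held 3.84 to 4.03%. Libraries of a group correlated at 0.995 to 0.997 (Pearson, log2 CPM across genes, which are not independent replicates). VT replicate 2 differed most: its chi-square per degree of freedom was 4.88 against VT replicate 1 and 5.79 against VT replicate 3. Between VT replicates 1 and 3 it was 3.02, and within LAMP2A 1.49 to 2.43. The labels name no batch or date. The VT cells matched their label as ES cells: the summed level of 8 ES cell markers was 7111 to 7522 CPM in VT and 1561 to 1567 CPM in LAMP2A, and all 8 fell. Genes were called at an adjusted p under 0.05 (Benjamini-Hochberg, over all genes tested). With a coefficient of variation of 2.74% between libraries most genes passed: 6240 (43.0%) were higher in LAMP2A, 6115 (42.1%) lower, and 85.1% changed in either direction. At least 2-fold changes were less even, 19.8% of genes higher and 9.61% lower. The median log2 fold change of all genes was 0.01. Every list below is to be read against these shares. These are bulk RNA measurements, in which fewer cells of a type and less RNA per cell cannot be told apart.

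More genes were switched on than off. In the VT libraries 12315 genes averaged at least 1 CPM, against 12998 in LAMP2A: 1065 reached that level in LAMP2A alone and 382 in VT alone. A total of 127 genes lay under 1 CPM in each VT library and at 10 CPM or more in each LAMP2A library, and they made up 0.497% of all CPM in LAMP2A. Of these, 50 (39.4%) belonged to one of the pathway or cell type lists used here, against 10.1% of all genes tested, among them actins, collagens, Hox genes, the imprinted RNA H19 and the lineage transcription factor genes Hand1, Gata3, Foxa2, Foxf1 and Sox9. The lists were chosen with earlier results of these data known, so these shares are a description only. The opposite switch was seen for 4 genes, named here because they were so few: Nphs1 and Kirrel2, neighbouring genes for adhesion proteins of the kidney filter, the homeobox gene Nkx6-3, and 9330159F19Rik. With stricter limits, under 0.5 CPM and at least 20 CPM, 42 genes were switched on and 1 off.

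**Figure D1:**
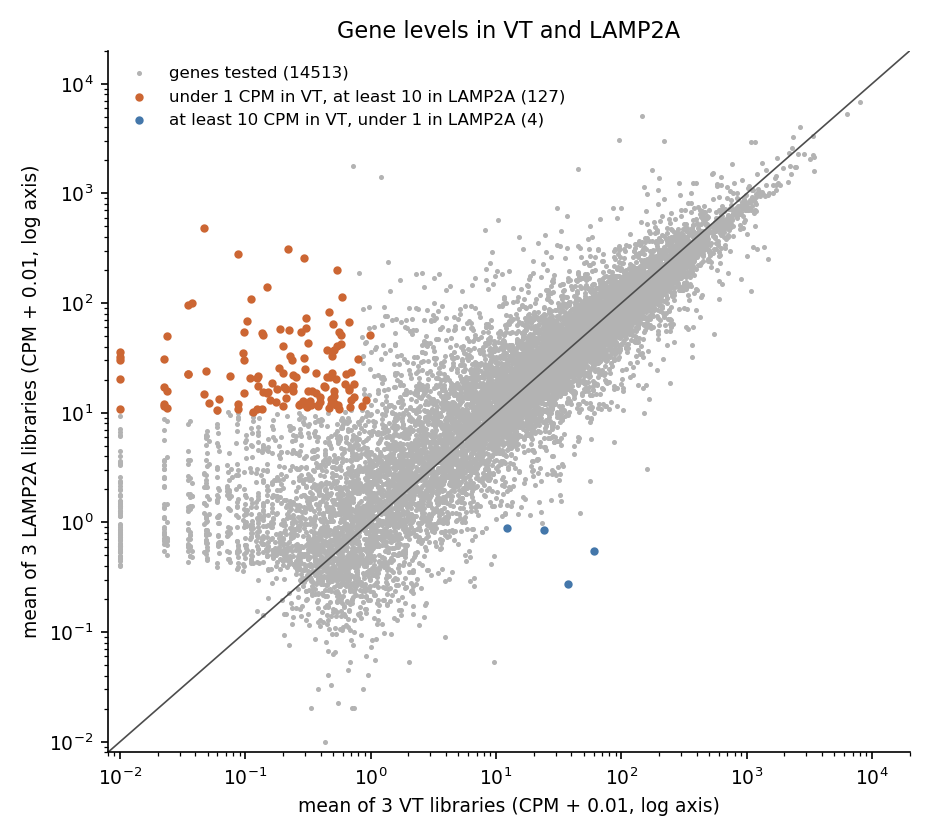
Mean level of each of the 14513 genes tested in VT (x axis) and LAMP2A (y axis), both as CPM + 0.01 on log axes, with the line of equal levels. The 127 genes switched on in LAMP2A (orange) lie at the upper left and the 4 switched off (blue) at the lower right.

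Genes of the actin cytoskeleton and of contraction rose almost without exception. Of 35 list members, all of them tested, 34 were higher in LAMP2A and 1 was lower, with 27 higher by at least 2-fold (median log2 fold change 1.84, against 0.01 for all genes). The list's summed level was 5864 to 6248 CPM in VT and 21168 to 21206 CPM in LAMP2A. Muscle actin isoforms were the extreme. Acta2, the smooth muscle actin (chromosome 19, 34241090–34255590), was at 0, 0.0740 and 0.0372 CPM in VT, 3 counts in all, and at 479.7, 485 and 492 CPM in LAMP2A, a ratio of 12651 (95% counting interval 4329 to 61349.8). Acta1, the skeletal muscle actin (chromosome 8, 123891769–123894751), was at 0.288, 0.148 and 0.186 CPM in VT and 303, 318 and 317 CPM in LAMP2A (log2 fold change 10.55, SE 0.361; adjusted p = 5.4e-43 in edgeR's quasi-likelihood test). No read of the cardiac actin Actc1 was counted in VT, and its LAMP2A libraries held 18.8, 21.1 and 21.1 CPM, at least 528-fold more than a floor of 3 counts over the VT group. Intervals and floors of this kind cover counting error only. Per kilobase of exon, Acta2 stood at 221 CPM in LAMP2A, Acta1 at 204, Actc1 at 12.6 and the enteric actin Actg2 at 2.39. The isoforms are close paralogs, so their split depends on how the authors' counting treated shared reads.

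Among proteins that bind actin filaments, Tagln (transgelin) went from 1.19 to 1404 CPM and Cnn1 (calponin) from 0.858 to 88.1 CPM. Tpm1, a tropomyosin that lines the filament (chromosome 9, 67022590–67049406), was at 90.9, 100.5 and 94.6 CPM in VT and 3090.3, 3022 and 3023 CPM in LAMP2A. Its rise was 31.9-fold (log2 fold change 5.00, SE 0.0328; adjusted p = 4.5e-44 in edgeR's quasi-likelihood test). After Mest it had the largest gain in CPM of any gene named by the rule. The myosin light chain Myl9 went from 1.26 to 93.0 CPM. Genes already abundant in VT rose by less: the filament crosslinker Flna by 2.75-fold, from 1075 to 2953 CPM. Srf, the transcription factor of many contractile genes, rose 1.73-fold, and its actin-sensing coactivators Mkl1 and Mkl2 rose 1.67-fold and 2.51-fold. The single lower member was Lmna, which encodes the nuclear lamins A and C, at 84.2, 87.4 and 81.1 CPM in VT and 58.4, 60.8 and 57.1 CPM in LAMP2A (log2 fold change -0.52). Lmna is no part of the contractile filaments but of the nuclear lamina.

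**Figure D2:**
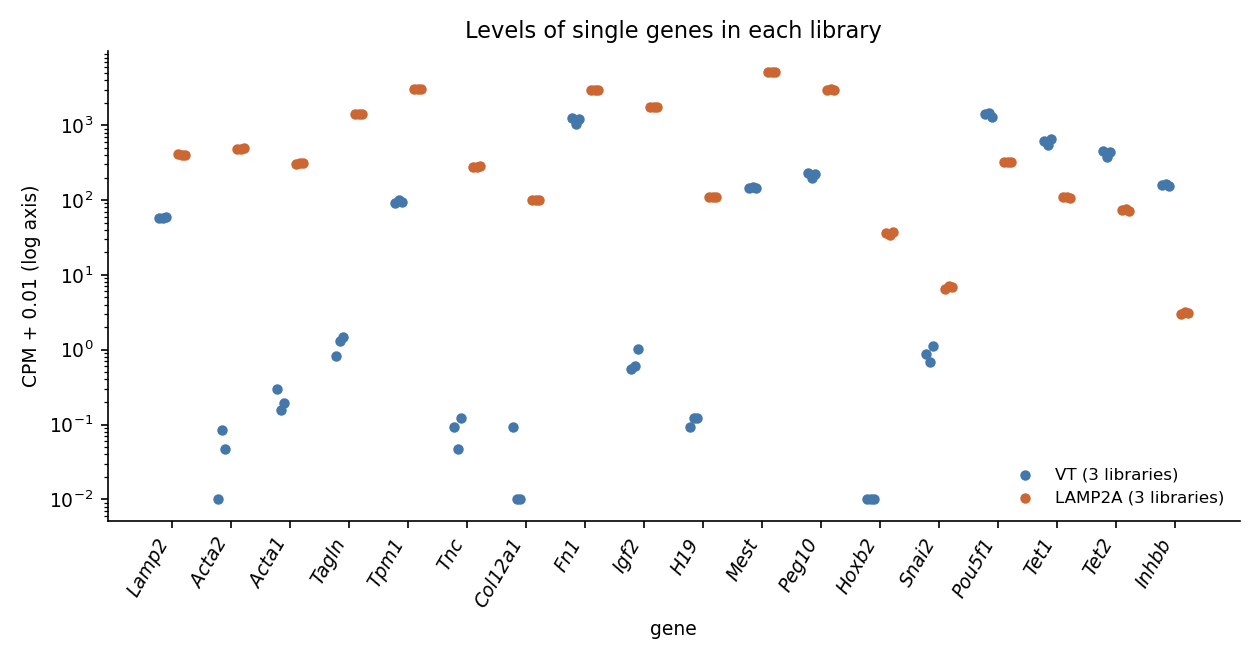
Level of 18 genes in each of the 3 VT libraries (blue) and 3 LAMP2A libraries (orange), as CPM + 0.01 on a log axis, so that points at 0.01 are libraries without a count. For each gene the groups do not overlap, and replicate libraries lie closer together than the groups.

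Promoter sequences of this list are shown because its members moved together and because contractile genes are the classic targets of SRF, which binds the CArG box (CC, then 6 bases of A or T, then GG). RefSeq promoters on GRCm38.p6, 250 bases before to 50 after the start, were matched for 31 of the 35 members. A CArG box was in 6 of the 31 (19.4%), namely Acta1, Actc1, Cnn2, Myl9, Srf and Vcl, against 488 of all 27025 genes with a listed promoter (1.81%). The TEAD motif GGAATG, or its complement CATTCC on the other strand, was in 14 of the 31 (45.2%) against 16.6% of all genes. The motifs can overlap by the GG or CC at their ends. The list was put together by function, so these shares describe it and say nothing of what bound there. Printed below, 5′ to 3′ with both motifs in capitals, are the promoters of Tpm1 (chr9:67049164-67049463, minus strand), which gained most CPM in the list, and of the 3 muscle actins with the largest ratios: Acta2 (chr19:34255324-34255623, minus strand), Acta1 (chr8:123894726-123895025, minus strand) and Actc1 (chr2:114052826-114053125, minus strand).
Tpm1: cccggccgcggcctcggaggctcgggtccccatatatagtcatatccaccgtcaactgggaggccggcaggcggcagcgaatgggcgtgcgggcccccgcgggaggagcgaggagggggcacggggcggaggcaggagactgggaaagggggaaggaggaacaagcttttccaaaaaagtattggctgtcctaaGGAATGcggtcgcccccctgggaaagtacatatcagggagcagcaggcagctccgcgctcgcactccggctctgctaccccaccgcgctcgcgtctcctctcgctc
Acta2: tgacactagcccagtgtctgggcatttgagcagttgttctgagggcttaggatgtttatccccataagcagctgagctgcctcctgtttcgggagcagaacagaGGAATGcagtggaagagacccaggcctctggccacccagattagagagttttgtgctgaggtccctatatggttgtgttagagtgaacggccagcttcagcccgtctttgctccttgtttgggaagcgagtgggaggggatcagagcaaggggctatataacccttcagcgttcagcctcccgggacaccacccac
Acta1: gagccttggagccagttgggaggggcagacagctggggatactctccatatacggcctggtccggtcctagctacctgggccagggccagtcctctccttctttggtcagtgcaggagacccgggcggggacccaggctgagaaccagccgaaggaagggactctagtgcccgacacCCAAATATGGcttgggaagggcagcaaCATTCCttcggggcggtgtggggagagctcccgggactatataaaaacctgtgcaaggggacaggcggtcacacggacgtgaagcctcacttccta
Actc1: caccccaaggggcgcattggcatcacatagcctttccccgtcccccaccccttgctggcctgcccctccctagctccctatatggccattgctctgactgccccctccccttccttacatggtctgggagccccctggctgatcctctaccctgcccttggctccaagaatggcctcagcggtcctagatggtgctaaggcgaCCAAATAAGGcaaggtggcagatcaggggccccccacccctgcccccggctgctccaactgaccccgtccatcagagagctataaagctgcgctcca
Acta1 has a CArG box beginning 73 bases before its start and CATTCC at 46 bases, and Actc1 a CArG box at 47 bases. Tpm1 has GGAATG 56 bases and Acta2 146 bases before the start, and neither has the strict CArG box in this window.

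All 17 targets of YAP and TAZ rose, 12 of them at least 2-fold (median log2 fold change 1.75). YAP and TAZ are coactivators of the Hippo pathway that enter the nucleus of spread, tense cells and work through TEAD factors. Ankrd1 had 3 counts in VT and 15.7, 14.6 and 13.97 CPM in LAMP2A, a ratio of 386 (95% counting interval 132 to 1876). The secreted matricellular genes Cyr61 and Ctgf were at 9.09, 8.87 and 9.63 and at 18.4, 18.1 and 18.0 CPM in VT. In LAMP2A they reached 292, 293 and 296 CPM and 167, 165 and 164 CPM, 31.9-fold and 9.11-fold higher. Tgfb2 went from 0.795 to 189 CPM and the receptor gene Axl from 1.54 to 22.2 CPM. The smallest change was that of Wtip (log2 fold change 0.10). Its call was lost with DESeq2 (0.11), without VT replicate 3 (0.046) and without LAMP2A replicate 2 (0.094) or 3 (0.089), which leaves 16 targets that rose. Of 8 genes for the factors themselves, 7 rose and 1 fell. Yap1 and Wwtr1 (TAZ) rose 1.42-fold and 1.27-fold, Tead1 2.72-fold and Tead2 2.44-fold. Tead4, the form that acts in the trophectoderm of the early embryo, fell 2.17-fold from 59.2 to 27.2 CPM.

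Extracellular matrix genes rose as broadly. The collagen list holds 44 genes, of which 35 were tested, 30 rose and 5 fell, 28 and 2 of them at least 2-fold (median log2 fold change 2.77). A gene near zero in VT can enter the test only through its level in the LAMP2A or DM-αKG libraries. If it enters through LAMP2A it has to differ, which touches collagens, Hox genes and other lists silent in VT. Col12a1, a collagen of the fibril surface, was at 0.0823, 0 and 0 CPM in VT, 2 counts in all, and at 100.2, 100.1 and 100.1 CPM in LAMP2A, a ratio of 3918 (95% counting interval 1084 to 32357). The fibril collagens Col3a1 and Col1a1 went from 0.0865 to 34.8 CPM and from 0.968 to 59.2 CPM. The basement membrane chains were already present: Col4a1 went from 161 to 984 CPM and Col18a1 from 202 to 1378 CPM, 6.11-fold and 6.84-fold. The 5 lower chains were Col5a3, Col6a4, Col6a5, Col13a1 and Col17a1, each averaging under 12 CPM in VT. Col13a1, a transmembrane collagen, went from 3.68 to 1.21 CPM.

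Laminins, the cross-shaped proteins of the basement membrane, were higher in 10 of 11 (median 2.24), and Lama3 did not pass (log2 fold change 0.30). Lamb1 was at 89.6, 85.5 and 83.4 CPM in VT and 732, 743 and 737 CPM in LAMP2A, 8.56-fold higher. Of 36 matrix glycoproteins 34 were tested, 30 rose and 1 fell (median 2.26). Tenascin C, made in remodelling tissue, was at 0.0823, 0.0370 and 0.112 CPM in VT and 278, 278 and 286 CPM in LAMP2A. Thrombospondin 1 (Thbs1) went from 0.531 to 199 CPM and fibronectin (Fn1) from 1169.6 to 2944 CPM, a 2.52-fold rise from a high level. Spp1, osteopontin, was the exception and fell 4.55-fold, from 388, 399 and 392 CPM to 88.0, 85.7 and 85.1 CPM.

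Enzymes that build, crosslink or cut the matrix, with their inhibitors, followed: 31 of 34 tested rose and 2 fell (median 2.00). The collagen chaperone gene Serpinh1 rose 9.23-fold, from 178, 177 and 172 CPM to 1606, 1620.0 and 1643 CPM. The gelatinase Mmp9 went from 1.56 to 53.5 CPM, its inhibitor Timp3 from 2.00 to 90.5 CPM, and the plasminogen activator Plat from 0.566 to 51.6 CPM. No read of the metalloprotease Adam12 was counted in VT, and at 6.07 CPM in LAMP2A it was at least 158-fold higher. The lower members were Timp1, from 30.0 to 19.9 CPM, and Pcolce, an enhancer of procollagen cleavage, from 239.8 to 86.7 CPM. Integrin subunits, which hold cells to the matrix, were divided: 13 of 21 tested rose and 4 fell. Itgb1, the β chain shared by most matrix receptors, rose 4.10-fold from 195 to 799.6 CPM, and Itga8 went from 1.56 to 41.4 CPM. The lower subunits were Itga9 and 3 that leukocytes use, Itgae, Itgal and Itgb7. Itgb7 fell 10.2-fold, from 27.9 to 2.75 CPM.

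Transcription factors of the epithelial to mesenchymal transition (EMT) were higher in all 11 cases, 9 at least 2-fold (median log2 fold change 3.48). Snai2 was at 0.864, 0.666 and 1.12 CPM in VT and 6.38, 7.15 and 6.98 CPM in LAMP2A. Snai1 rose 11.1-fold, Twist1 13.1-fold and Zeb2 26.6-fold, from 1.55 to 41.2 CPM, whereas Zeb1 rose by 0.20 and Tcf4 by 0.44 on the log2 scale. Epithelial junction genes did not fall together: of 29 tested, 17 (58.6%) rose and 9 (31.0%) fell. Cdh1, E-cadherin, was at 209, 207 and 202 CPM in VT and 280.5, 286 and 283 CPM in LAMP2A, 1.37-fold higher. The desmosome genes Dsc2 and Dsp went from 3.22 to 69.4 CPM and from 56.4 to 221 CPM. The protease inhibitor gene Spint1 fell 2.30-fold, and Epcam did not pass (log2 fold change 0.10). Epcam was called higher with DESeq2 size factors or library totals (0.11 each) and with a mean of at least 5 CPM (0.155). It was also called higher without VT replicate 2 (0.15). Keratins of simple epithelia rose in 5 of 6 tested. Krt8 was at 35.4, 39.4 and 36.1 CPM in VT and 614, 626 and 618 CPM in LAMP2A, and its partner Krt18 went from 8.09 to 462 CPM. Krt42 fell 11.9-fold, from 32.7 to 2.73 CPM. Mesenchymal transcription factors and epithelial cadherin and keratins were thus higher in the same libraries.

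**Figure D3:**
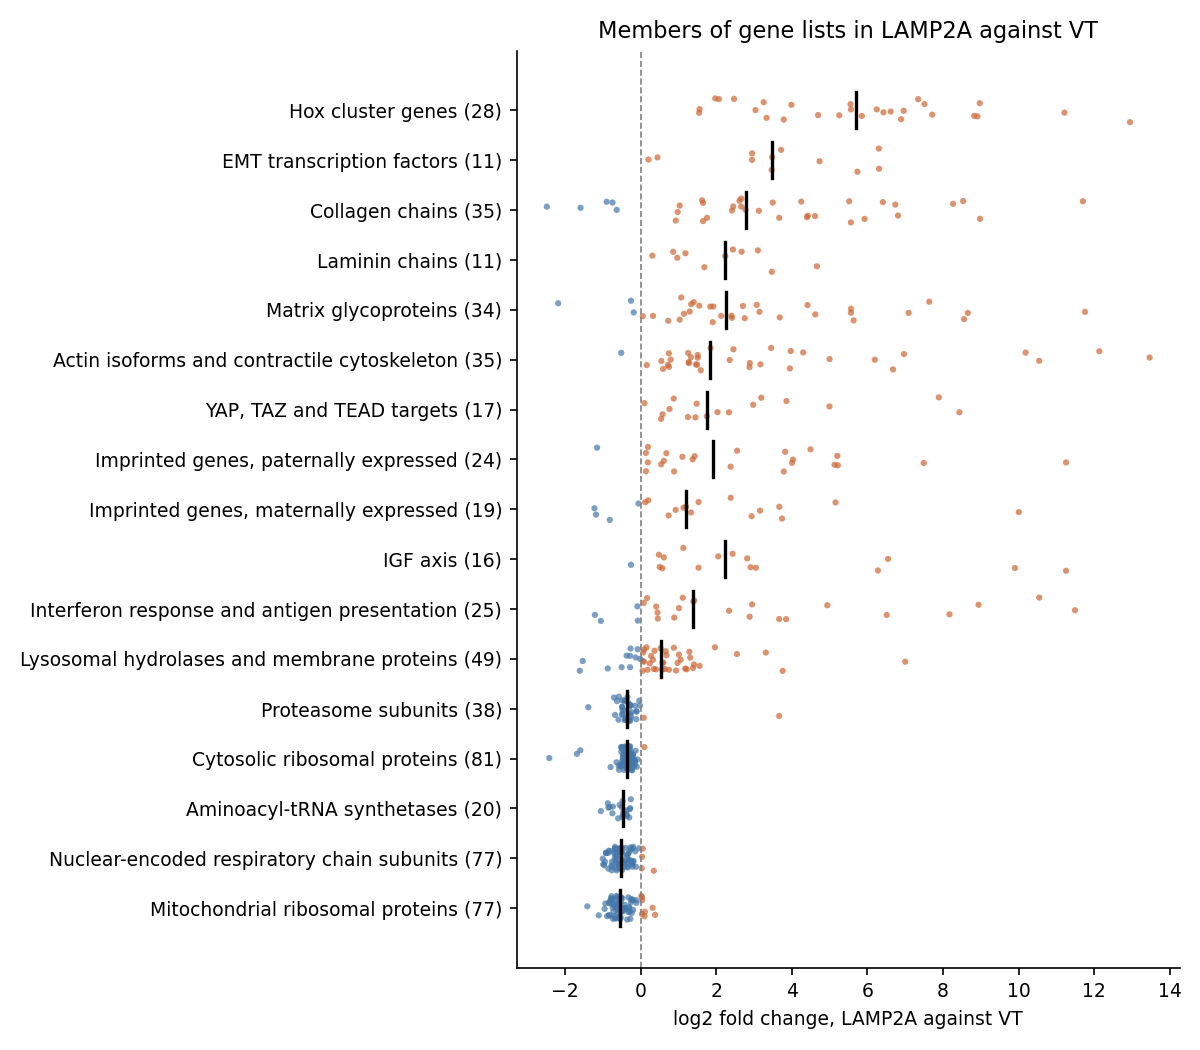
Log2 fold change of each tested member of 17 gene lists, LAMP2A against VT (orange above 0, blue below), with the number tested in parentheses. The black tick is the median of the list, and the dashed line the median of all genes, 0.01. Matrix, contractile, Hox and imprinted lists lie mostly to the right with a wide range. Ribosomal, proteasome and respiratory chain lists lie mostly to the left, with most members changed less than 2-fold. Their outliers reach -2.42 among cytosolic ribosomal proteins and 3.66 among proteasome subunits.

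Hox genes set position along the body axis and are held silent in ES cells by Polycomb complexes. The table lists 39, of which 28 were tested, and all 28 rose at least 2-fold. As said for collagens, members near zero in VT that entered the test through LAMP2A had to differ. The count of 28 follows in part from the filter and is a description only. The median log2 fold change of the 28 was 5.71, or 5.65 with genes that had no count in VT at their lower bound. No Hox gene averaged 5 CPM in VT, and 11 did in LAMP2A, 7 of them in the Hoxb cluster. The summed mean level of the 39 went from 9.59 to 208 CPM. Hoxb2 (chromosome 11, 96350525–96354012) had no count in VT and 35.8, 34.0 and 37.3 CPM in LAMP2A, at least 928-fold more, and Hoxb1 had none in VT and 10.6, 10.4 and 11.2 CPM in LAMP2A, at least 279-fold more. Hoxb9 was already counted in every VT library, at 2.10, 2.81 and 2.05 CPM, and was at 33.0, 32.3 and 30.9 CPM in LAMP2A. Transcripts within a Hox cluster overlap, and whether the counting used strand is not stated in those sources, so neighbours may share reads.

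**Figure D4:**
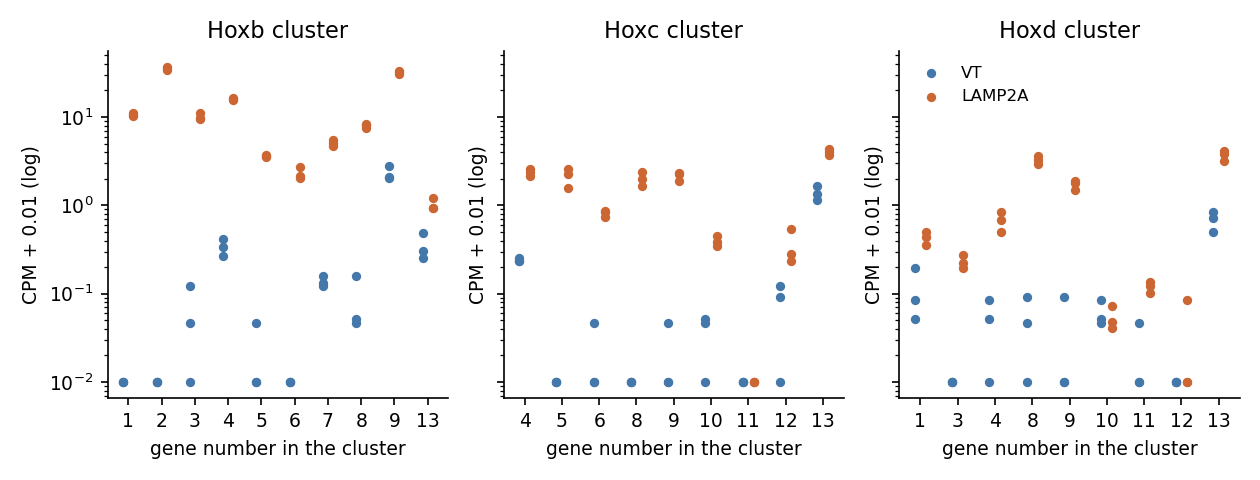
Level of the genes of the Hoxb, Hoxc and Hoxd clusters in each VT (blue) and LAMP2A (orange) library by gene number, as CPM + 0.01 on a log axis. In Hoxb 7 genes average at least 5 CPM in LAMP2A, and in Hoxc and Hoxd none does.

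TALE homeobox proteins include some DNA-binding partners of Hox proteins, and 12 of 17 TALE genes tested rose while 3 fell. Meis1 went from 1.21 to 62.9 CPM and Meis2 from 4.28 to 143 CPM. Irx3 was at 0.288, 0.296 and 0.335 CPM in VT and 42.6, 44.4 and 43.5 CPM in LAMP2A. The lower members were Pknox1, Mkx and Tgif1. Retinoic acid, made from vitamin A, is the best known inducer of anterior Hox genes, and 15 of 18 tested genes of its pathway rose (median 2.28). The binding protein Crabp2 rose 37.0-fold, from 2.36 to 87.6 CPM. The degrading enzymes Cyp26a1 and Cyp26b1 went from 0.213 to 7.599 CPM and from 0.277 to 12.9 CPM, and the retinoic acid receptor gene Rarb from 0.619 to 10.2 CPM. Rarg, the receptor abundant in VT, fell 3.81-fold, from 206, 195 and 192 CPM to 50.7, 52.4 and 52.5 CPM.

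Other transcription factor families of early development rose more often than they fell. All 5 tested GATA factors, of mesoderm, endoderm and trophoblast, rose at least 2-fold: Gata3 went from 0.218 to 33.0 CPM, Gata6 from 2.81 to 41.0 CPM and Gata4 from 5.92 to 30.3 CPM. Of 13 T-box factors 9 rose and 2 fell. Tbx20, of the heart, went from 5.49 to 20.1 CPM and Tbx15 from 1.59 to 9.22 CPM. T (brachyury), the marker of the primitive streak, stayed under 1 CPM, at 0.329, 0.222 and 0.372 CPM in VT and 0.669, 0.497 and 0.411 CPM in LAMP2A, and its call as higher was lost with DESeq2 and without VT replicate 1 or 2 or LAMP2A replicate 1. Tbx3, which supports naive pluripotency, fell 1.74-fold from 321 to 184 CPM. SOX factors rose in 14 of 18 cases and fell in 3. Sox9, of cartilage and many epithelia, went from 0.154 to 18.5 CPM and Sox4 from 8.26 to 162 CPM. Sox2 and Sox15, both of the pluripotent state, fell 1.86-fold and 4.48-fold, as did Sox7. The 33 tested forkhead factors split, 22 (66.7%) higher and 11 (33.3%) lower. Foxa2 (endoderm) was at 0.0823, 0.148 and 0.298 CPM in VT and 24.99, 25.8 and 26.4 CPM in LAMP2A, and Foxf1 (visceral mesoderm) went from 0.0769 to 10.8 CPM. Foxd3, a factor of pluripotent cells and neural crest, fell 5.82-fold from 53.5 to 9.20 CPM, and Foxn4 26.0-fold from 6.62 to 0.251 CPM.

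Genes for signals and their receptors changed in number. Of 29 WNT ligands and receptors tested 24 rose and 4 fell (median 1.98). The receptor gene Fzd2 was at 3.37, 3.00 and 3.12 CPM in VT and 164, 170.2 and 171 CPM in LAMP2A, while Fzd5 fell 5.58-fold, from 242, 225 and 230.2 to 41.8, 41.5 and 41.5 CPM. The noncanonical ligand Wnt5a went from 0.126 to 4.41 CPM and its receptor Ror1 from 0.291 to 24.9 CPM. WNT antagonists were higher in 11 of 15, with Dkk1 from 0.489 to 64.8 CPM, and lower in 3, with Sfrp1 from 194 to 125 CPM. Among BMP and TGF-β genes 18 of 24 rose and 4 fell. The ID genes, direct targets of BMP, rose, Id2 from 6.83 to 171 CPM and Id3 from 24.9 to 289.9 CPM. The ligand Bmp2 went from 0.323 to 11.8 CPM, while Bmp4 did not pass, at 77.7 CPM in VT and 80.5 CPM in LAMP2A. Inhbb, the activin B subunit, was at 158, 164 and 156 CPM in VT and 3.01, 3.14 and 3.10 CPM in LAMP2A, a 51.6-fold fall and the lowest log2 fold change of the list (-5.69, SE 0.0867; adjusted p = 5.3e-41 in edgeR's quasi-likelihood test). The lower members also held Nodal, Gdf3 and Gdf15.

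FGF ligands and receptors were nearly balanced, with 9 of 16 tested higher and 6 lower, against 43.0% and 42.1% of all genes. The receptors rose: Fgfr2 went from 2.16 to 56.7 CPM and Fgfr1 from 94.2 to 279.6 CPM. Fgf4, the autocrine ligand of ES cells, fell 4.11-fold from 251 to 61.1 CPM. Of 25 genes for other receptor tyrosine kinases and their ligands 16 rose and 5 fell. Flt1 went from 0.498 to 37.5 CPM and Kitl, the ligand of KIT, from 0.914 to 43.9 CPM, whereas its receptor gene Kit fell 2.07-fold from 151 to 72.9 CPM. Ephrins and Eph receptors, contact signals that sort cells, rose in 17 of 19 tested and fell in 1 (median 1.35). Efnb2 was at 3.74, 3.88 and 4.35 CPM in VT and 130.5, 129 and 131 CPM in LAMP2A, and Efnb1 went from 4.00 to 73.5 CPM. Semaphorins, plexins and neuropilins, guidance cues and their receptors, were higher in 18 of 29 and lower in 7. The secreted Sema3c and Sema3d and the receptor Nrp1 went from 0.190 to 41.0 CPM, from 0.227 to 30.5 CPM and from 0.545 to 54.7 CPM. The membrane-bound Sema4a and Sema5b fell 4.01-fold and 3.46-fold.

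Imprinted genes, expressed from a single parental copy, held some of the largest gains of the whole transcriptome. Of 24 paternally expressed genes tested 21 rose, 15 at least 2-fold, and 1 fell (median 1.90). Mest (chromosome 6, 30723547–30748465) was at 145, 148 and 146 CPM in VT and 5133, 5115 and 5114 CPM in LAMP2A, the largest gain in CPM of any gene named by the rule (35.0-fold; log2 fold change 5.13, SE 0.0289; adjusted p = 1.2e-45 in edgeR's quasi-likelihood test). Peg10, derived from a retrotransposon and needed in the placenta, went from 229, 199.5 and 224 CPM to 2999, 3007 and 2981 CPM, and Peg3 from 46.1, 41.5 and 46.9 CPM to 1678, 1668 and 1645 CPM. The growth factor gene Igf2 (chromosome 7, 142650766–142666816) was at 0.535, 0.592 and 1.00 CPM in VT and 1751, 1755 and 1780.1 CPM in LAMP2A. Mcts2 was the single lower member, from 33.7 to 15.1 CPM. Maternally expressed genes rose too, in 15 of 19 cases, with 3 lower (median 1.20). H19, a noncoding RNA that shares its control region with Igf2, was at 0.0823, 0.111 and 0.112 CPM in VT and 111, 109 and 109 CPM in LAMP2A. The growth inhibitors Cdkn1c and Grb10 went from 4.67 to 62.5 CPM and from 151 to 1156 CPM. Phlda2, Slc22a18 and Tspan32, which lie in the same domain as Cdkn1c, fell, Phlda2 by 2.27-fold. So both genes of the Igf2 and H19 pair rose, although they are normally expressed from opposite parental copies, and Igf2r rose 2.88-fold together with Airn, an RNA that runs antisense to it and whose reads cannot be told from it without the strand setting. Counts per gene do not tell the parental copies apart.

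The wider insulin-like growth factor axis rose in 15 of 16 tested genes and fell in none (Igfbp7 did not pass; log2 fold change -0.26). The binding proteins Igfbp5 and Igfbp4 went from 0.138 to 139 CPM and from 1.71 to 161 CPM. The receptor Igf1r rose 4.14-fold, and the docking protein Irs1 went from 0.526 to 40.9 CPM.

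Enzymes that write and erase DNA methylation moved in both directions: 3 of 9 tested rose and 5 fell. TET dioxygenases, which use α-ketoglutarate to oxidize methylcytosine, showed the largest falls of the list. Tet1 (chromosome 10, 62804570–62908996) was at 624, 544 and 647 CPM in VT and 109, 111 and 107 CPM in LAMP2A, a 5.57-fold fall (log2 fold change -2.48, SE 0.0487; adjusted p = 6.1e-18 in edgeR's quasi-likelihood test). Tet2 went from 447, 374 and 444 CPM to 73.4, 77.0 and 71.4 CPM, 5.70-fold lower, while Tet3, the form of the oocyte and of differentiated cells, rose 3.06-fold from 27.7 to 84.6 CPM. Per kilobase of exon Tet1 went from 39.1 to 7.03 CPM and Tet3 from 1.66 to 5.07 CPM. Of the methyltransferases Dnmt3a rose 1.89-fold, the cofactor Dnmt3l fell 2.35-fold, and Dnmt3b did not pass, at 111 CPM in VT and 112 CPM in LAMP2A. Dnmt1, the maintenance enzyme, was lower by a small margin (log2 fold change -0.07), and the call was lost under 9 of 13 alternatives. Among them it was lost without VT replicate 1 (-0.039) and without LAMP2A replicate 1 (-0.067), 2 (-0.075) or 3 (-0.068). Its partner Uhrf1 fell 1.37-fold and Uhrf2 rose 2.65-fold.

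Isocitrate dehydrogenases make α-ketoglutarate, and 4 of the 5 genes fell. Idh3a, the catalytic subunit of the mitochondrial NAD-dependent enzyme, was at 186, 194 and 204 CPM in VT and 98.0, 96.7 and 99.7 CPM in LAMP2A, 1.98-fold lower. Idh1, the cytosolic NADP-dependent enzyme, went from 142, 143 and 140.0 CPM to 106, 113 and 106 CPM (1.31-fold lower), and Idh3b and Idh3g had log2 fold changes of -0.26 and -0.41. Idh2, its mitochondrial counterpart, was at 272, 284 and 264 CPM in VT and 304, 305 and 306 CPM in LAMP2A, 1.12-fold higher. RNA levels say nothing of enzyme or metabolite amounts. The histone demethylases that also use α-ketoglutarate were split, 7 of 17 tested higher and 10 lower, with 1 at least 2-fold in each direction, Phf2 (log2 fold change 1.07) and Kdm4c (-1.03). Germline genes that DNA methylation keeps silent were near the background, with 10 of 22 tested higher and 9 lower. Ddx4 rose 3.53-fold from 21.2 to 74.9 CPM, and Rpl10l, a testis form of a ribosomal protein and a paralog of Rpl10, fell 5.36-fold. The 321 numbered zinc finger genes tested were likewise near it, 34.6% higher and 46.1% lower.

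Genes for the protein and energy machinery fell together by small amounts. Of 77 nuclear-encoded respiratory chain subunits tested 72 fell and 1 rose, with 1 lower by at least 2-fold (median log2 fold change -0.53). The fall in Cox5a, of complex IV, was 1.88-fold, from 325, 356 and 343 CPM to 186, 180.5 and 178 CPM, and in Uqcrq, of complex III, 2.01-fold. Atp5s was the higher member, at 6.67 and 8.51 CPM. Mitochondrial ribosomal proteins fell in 69 of 77 (median -0.54), Mrpl36 by 2.67-fold, and rose in 2, Mrps18a and Mrpl54. Cytosolic ribosomal proteins fell in 78 of 81 (median -0.36), and Rps19 was the member that rose, by 0.09 on the log2 scale, a call lost without VT replicate 1 (0.067) or 3 (0.068). Many ribosomal protein genes have processed pseudogenes, so single values are less certain than the shared direction. All 20 aminoacyl-tRNA synthetases fell (median -0.48), Tars by 2.08-fold from 311, 323 and 322 CPM to 149.6, 157 and 153 CPM and Aars by 1.83-fold. Proteasome subunits fell in 34 of 38 (median -0.38). Psmb8, an immunoproteasome subunit induced by interferon, was the single one to rise, from 0.0879 to 1.17 CPM. The scale moved the median of all genes by 0.010 to 0.012 log2 units between the normalizations tried, less than any of these medians. All of these normalizations are relative, so they would not show a change in total RNA per cell.

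Lysosomal hydrolases and membrane proteins, the compartment in which LAMP2A works, rose in 33 of 49 tested (67.3%) and fell in 10 (20.4%), with 14 higher by at least 2-fold (median 0.52). Lamp1 rose 1.58-fold, from 440.3 to 696 CPM. Lipa, the acid lipase, was at 4.73, 4.29 and 4.65 CPM in VT and 26.2, 27.0 and 26.4 CPM in LAMP2A, and the cathepsin gene Ctso went from 0.0411 to 5.46 CPM. Manba and Cd68 fell 3.07-fold and 2.90-fold. Subunits of the V-ATPase, the pump that acidifies the lysosome, did not share that direction: 7 of 20 tested rose and 10 fell (median -0.09). Atp6v0a1 rose 1.88-fold and Atp6v1a fell 1.58-fold. Cholesterol synthesis genes fell in 15 of 22 and rose in 5 (median -0.37), Pmvk by 2.59-fold, while the regulator Srebf2 rose 1.26-fold.

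Interferon response and antigen presentation genes were higher in 20 of 25 tested and lower in 2 (median 1.39). Gbp2, an interferon-induced GTPase, had 1 count in VT and 49.95, 50.7 and 48.7 CPM in LAMP2A, a ratio of 3899 (95% counting interval 699.5 to 154048). B2m, the light chain of MHC class I, was at 8.06, 8.43 and 8.26 CPM in VT and 61.8, 59.6 and 61.2 CPM in LAMP2A, and H2-K1, a class I heavy chain with close paralogs, rose 2.61-fold. Ifitm2, abundant in ES cells, fell 2.08-fold from 263 to 126 CPM. Of the cyclins and inhibitors of cyclin-dependent kinases, 8 of 16 rose and 7 fell, near the shares of all genes. The inhibitor gene Cdkn2b went from 0.535, 0.740 and 0.298 CPM to 20.4, 21.1 and 19.3 CPM, Cdkn2a from 3.19 to 31.6 CPM and Cdkn1a from 36.1 to 115 CPM, while the inhibitor Cdkn2d fell and Cdkn1b did not pass. Cyclin E1 (Ccne1) and cyclin D3 (Ccnd3) fell 2.53-fold and 1.97-fold, and cyclin D2 (Ccnd2) went from 2.31 to 57.2 CPM. Of 58 clustered protocadherins, adhesion genes read from many alternative promoters, 23 were tested, and 17 rose. Pcdhgc3 went from 13.3 to 38.8 CPM. Their transcripts share exons, so reads may be split among them. Of 12 protocadherins outside the clusters 5 were tested, and all 5 rose, led by Pcdh18, which had no count in VT and 9.76, 9.13 and 9.15 CPM in LAMP2A. The limit given above for genes near zero in VT applies here too. Clustered histone genes, mostly without the poly(A) tail that the mRNA kit selects, were tested in 12 of 68 cases, with 4 higher and 4 lower.

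Marker lists of 14 cell types were summed in each library to see which other cells' genes moved with these results. The part of other cell types in the results above was not tested. Smooth muscle markers went furthest, to 2062 to 2104 CPM in LAMP2A from 42.7 to 48.5 CPM in VT, and all 8 rose. Most of the sum in LAMP2A was Tagln and Acta2, both given above with the contractile genes. Beside the actin genes the 8 markers included the defining genes Myh11, from 0.206 to 9.32 CPM, and Myocd, at 0, 0.0740 and 0 CPM in VT and 2.10, 3.17 and 2.73 CPM in LAMP2A. Fibroblast and feeder markers had 8.54 to 9.52 CPM in VT and 123 to 125 CPM in LAMP2A, with 5 of 6 tested higher. Thy1 fell from 4.38 to 3.16 CPM, Fap had no count in either group, and Lum was at 0 and 0.216 CPM. Parietal endoderm markers had 871 to 919.9 CPM in VT and 3587 to 3646 CPM in LAMP2A, and all 7 tested rose. These markers include Col4a1, Col4a2 and Lama1, collagen and laminin chains whose lists are given above, so the sums overlap. Visceral endoderm markers had 33.8 to 35.4 CPM in VT and 238 to 242 CPM in LAMP2A, most of it Cubn, from 8.36 to 204 CPM. Afp, a defining gene, had no count in VT and 1.16, 0.994 and 1.27 CPM in LAMP2A. Trophoblast markers had 23.4 to 24.4 CPM in VT and 137 to 141 CPM in LAMP2A, chiefly Hand1, Gata3, Krt7 and Tfap2c, while Elf5, Prl3d1 and Tpbpa were each under 0.05 CPM in both groups.

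Markers of definitive endoderm and gut had 6.03 to 6.43 CPM in VT and 42.5 to 44.0 CPM in LAMP2A, with Foxa2 the largest part, while Pdx1 stayed under 0.5 CPM in both groups. Neural progenitor markers had 61.8 to 65.8 CPM in VT and 291 to 299 CPM in LAMP2A, nearly all from Nes, an intermediate filament gene of many progenitors, at 47.4 to 265 CPM. Olig2, Nkx2-2, Fabp7 and Hes5 were under 0.5 CPM in both groups. Cardiomyocyte markers had 28.1 to 29.6 CPM in VT and 61.8 to 63.3 CPM in LAMP2A, with Myh7 from 0.358 to 23.1 CPM and Tnni3 lower, from 6.91 to 2.09 CPM. Surface ectoderm markers had 67.6 to 68.7 CPM in VT and 95.01 to 97.7 CPM in LAMP2A. Apart from the ES cell markers, 4 lists summed lower in LAMP2A. Endothelial markers had 95.1 to 99.5 CPM in VT and 36.7 to 39.2 CPM in LAMP2A, with Pecam1, which ES cells also express, from 74.4 to 19.9 CPM and Cdh5 from 0.347 to 1.09 CPM. Neuron markers had 228 to 236 CPM in VT and 112 to 113 CPM in LAMP2A, with Stmn2 from 165 to 63.6 CPM. Skeletal muscle markers had 32.0 to 34.2 CPM in VT and 15.9 to 17.0 CPM in LAMP2A and blood cell markers 7.28 to 7.73 CPM in VT and 3.62 to 4.50 CPM in LAMP2A. Myod1, Myog and Ptprc, which define the latter types, were under 0.05 CPM in both groups. Markers of several germ layers and of extraembryonic tissue were thus higher in the same 3 libraries, and ES cell markers remained at a summed 1561 to 1567 CPM there.

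**Figure D5:**
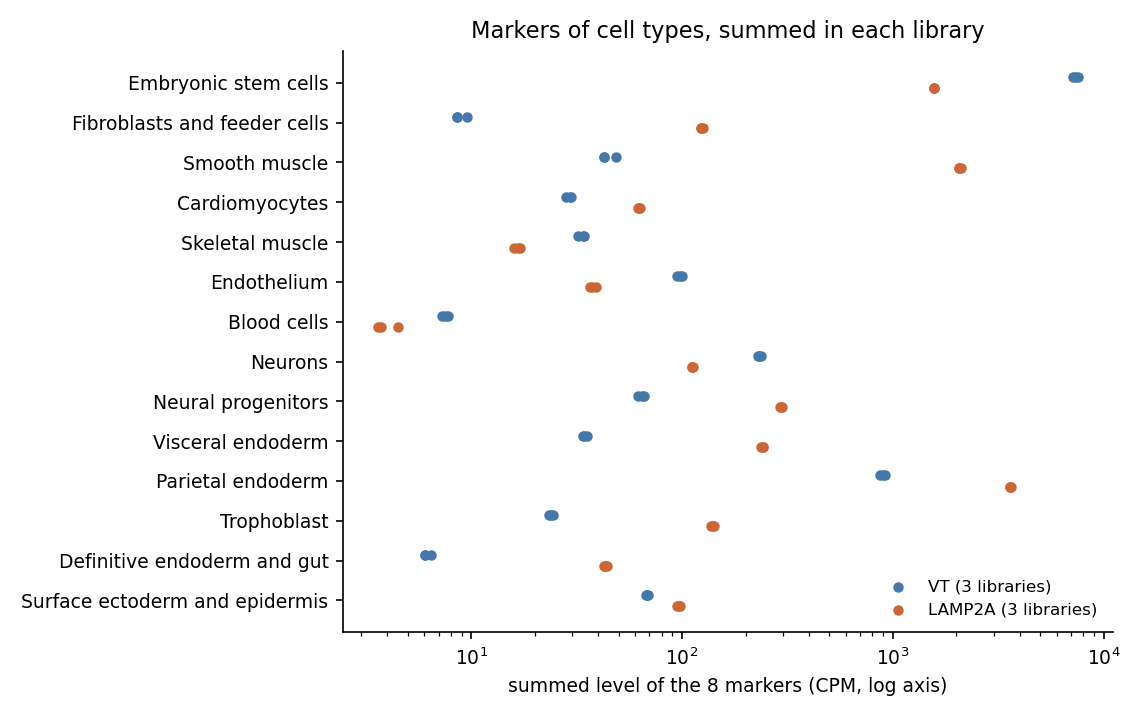
Summed level of the 8 markers of each of 14 cell types in every VT (blue) and LAMP2A (orange) library, in CPM on a log axis. The groups do not overlap for any list. Smooth muscle markers lie furthest to the right of VT in LAMP2A, and ES cell markers move to the left.

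By CPM, the 12 largest gains were those of Mest, Tpm1, Peg10, Flna, Fn1, Igf2, Peg3, Serpinh1, Tagln, Slc2a3, Col18a1 and Hspg2. They hold 4 imprinted genes, 3 of the actin cytoskeleton, 4 of the matrix and its assembly, and Slc2a3, a glucose transporter, which rose 1.51-fold from 2697, 2678 and 2679.5 CPM to 4046, 4040.4 and 4065 CPM. Hspg2, the basement membrane proteoglycan perlecan, went from 759.9 to 1863 CPM. The 12 largest losses were those of Hsp90aa1, Ncl, Esrrb, Eef1a1, Npm1, Pkm, Pou5f1, Hsp90ab1, Tdgf1, L1td1, Trim28 and Dppa5a. These hold pluripotency genes and abundant genes of translation, nucleolus and chaperones. Ncl, nucleolin, fell 1.61-fold, from 3335, 3596 and 3474 CPM to 2169, 2146 and 2136 CPM, and Eef1a1, the elongation factor of translation, 1.17-fold, from 8066 to 6875 CPM. Trim28, the corepressor that silences retroelements and guards imprints, fell 1.69-fold, from 2204, 2165 and 2065 CPM to 1259.9, 1275 and 1277 CPM. For 13976 tested genes placed on GRCm38, the median log2 fold change by chromosome ran from -0.10 on chromosome 17 to 0.18 on chromosome X, and the share of genes at least 2-fold higher from 14.4% on chromosome 17 to 27.5% on chromosome X.

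In the 3 libraries of LAMP2A cells given DM-αKG, Mest was at 149 to 153 CPM, Tpm1 at 95.8 to 97.5 CPM and Igf2 at 2.23 to 2.57 CPM. Hoxb9 was at 3.70 to 4.25 CPM there, Inhbb at 117 to 118 CPM, Tet1 at 524 to 539 CPM and Tet2 at 263 to 278 CPM. These values are given beside those above without a test, since both comparisons share the LAMP2A libraries. They come from a few of the genes named above and do not say how other genes stood in the libraries given DM-αKG.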

How the data were processed

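Libraries were made with Illumina's stranded TruSeq mRNA kit, per the labels' protocols. The deposited count table holds raw counts for each gene symbol, not normalized by the authors. The submitters' processing notes name STAR 2.7.1, HTSeq 0.11.2 and the build mm10; neither annotation nor strand setting is given in the sources used here. The authors' deposited table for this comparison, made with DESeq2 per the same notes, holds log2 fold changes and adjusted p-values per the file headers. It calls 6328 genes higher and 5847 lower of 16283, and the 11641 genes called in both it and the fit here had the same sign.

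The fit used edgeR 4.0.16 under R 4.3.3 (filterByExpr, TMM factors, estimateDisp, robust glmQLFit, glmQLFTest). It held all 9 libraries, with a mean for each of the 3 groups and 6 residual degrees of freedom, and p-values were adjusted over all 14513 genes tested. SE comes from the fitted group means, the dispersion and the quasi-dispersion, and is at least the counting error. Against a group without a count a floor of 3 counts over the group was used; with 1 to 3 counts a 95% counting interval is given. On simulated counts with 13610 genes for this comparison, 59 of 60 genes changed 1.5-fold, 73 of 73 changed 2-fold and 67 of 67 changed 4-fold were recovered. Among the unchanged genes 16 were called. Far fewer genes were changed there than passed in the data, and each averaged over 1 CPM in VT, so genes near zero in VT were not covered. Gene positions and exon lengths are from the GENCODE annotation of GRCm38, and promoters from RefSeq. Replicates were not merged, since chi-square per degree of freedom between libraries of a group ran from 1.49 to 5.79. Alternatives were other scaling (DESeq2 1.42.0 size factors, library totals), no filter or a stricter one, DESeq2, the 6 libraries alone, the replicate number as a block, each replicate left out, and a test against a 2-fold minimum.

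The comparison, the 46 pathway and 14 cell type lists (1717 genes, all symbols matched; some in more than 1 list), the rules and the alternatives were chosen with earlier results of these data known. Genes were named by a rule: Lamp2; the isocitrate dehydrogenases and DNA methylation enzymes; the 12 largest gains and 12 largest losses in mean CPM, without predicted, clone or mitochondrially encoded symbols; per list up to 5 members in the more frequent direction and 3 in the other by absolute log2 fold change with a mean of at least 1 CPM; any member of lists of up to 12; Hox genes with at least 5 CPM in a group; and any cell type marker. B2m, Bmp4, Cdh1, Cdkn1a, Cox5a, Epcam, H2-K1, Id3, Igf1r, Igf2r, Igfbp7, Kit, Lamp1, Mkl1, Mkl2, Mmp9, Myl9, Psmb8, Srf, T, Wnt5a, Wtip and the 4 genes switched off fall outside it and were chosen after their values were seen. Values of some genes that the rule names are not reported here.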

Additional observations from a re-analysis of the deposited data

How the results depend on the processing

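The counts of genes that passed stayed within 1.5 times under all alternatives tried, from 4661 to 6842 higher and from 4725 to 6337 lower, as did the at least 2-fold counts except with a mean of at least 5 CPM, where 1427 were higher and 718 lower because fewer genes were tested. With that filter the numbers of higher members were 13 for collagens, 19 for matrix glycoproteins, 7 for integrins, 6 for EMT factors, 3 for keratins, 5 for Hox genes, 3 for T-box, 8 for SOX and 12 for forkhead factors, 11 for interferon genes, 1 for protocadherins outside the clusters, 2 for clustered protocadherins (26 with no filter), 6 for retinoic acid genes, 13 for WNT ligands and receptors, 5 for WNT antagonists, 5 for FGF genes and 1 for clustered histones. The other list counts, 580 of 598, were within 1.5 times. With the stricter switch limits 42 genes were on and 1 off. A test against a 2-fold minimum (glmTreat) called 2468 genes higher and 1082 lower. Deviations of same-numbered libraries correlated at -0.012 to -0.028. That is no sign that replicate numbers pair the samples, but it cannot show that they do not. With the replicate block 6231 genes were higher and 6110 lower, and no named gene's call changed. Of 442 named genes with a test, those outside the naming rule included, 430 kept their call in every alternative that tested them and none reversed; the others were Dnmt1, Dnmt3b, Rxrb, Sox1, Atp6v1g2, Hist2h2be, Rps19, Tek, Wtip, T, Epcam and Bmp4, and beyond the effect of testing fewer genes the cause was not tested. Depth limits genes with few counts in VT, whose ratios have wide intervals.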

Other observations

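Genes of the sex chromosomes were looked at after their values were seen. The Y-linked genes Ddx3y, Eif2s3y, Kdm5d and Uty had at most 2 counts in any of the 9 libraries, although D3 is usually described as a male line, and the cause was not tested. Xist, the RNA of X inactivation, was at 1.70 to 2.45 CPM in the VT libraries, 6.05 to 7.80 CPM in the LAMP2A libraries and 1.46 to 1.90 CPM in the libraries given DM-αKG.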
